A study of Mus musculus with 8 samples.

Results

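Collagen VI and the fibril-associated collagens were followed here through 9 genes of the mouse cochlea, Col6a1, Col6a2, Col6a3, Col9a1, Col9a2, Col9a3, Col12a1, Col14a1 and Col16a1. They were picked by gene symbol from the 21895 genes of the expression table. Cochlear RNA came from wild-type mice (WT1 to WT4) and from mice lacking miR-29a on both alleles (KO1 to KO4), with 4 libraries per group. The knockout strain is kept on the C57BL/6 background, and the labels name no treatment for either group. The level of miR-29a itself was not analysed here. The series record gives an age of 21 days, whereas the study's methods give 2 months. The labels do not say that the libraries came from separate animals, and the p-values below measure only the spread between these libraries. Levels are FPKM, in which the fragments of a gene are divided by the length of its transcript and by the size of the library, so that genes can be compared with each other within a library.

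Collagen VI is a microfibril-forming collagen built from α1, α2 and α3 chains, found around cells and next to basement membranes in most connective tissues. Collagens IX, XII, XIV and XVI are FACITs, the fibril-associated collagens with interrupted triple helices, which sit on the surface of collagen fibrils and do not form fibrils alone. Collagen IX, also a trimer of different chains, is a component of cartilage and of the tectorial membrane, and its loss is linked to deafness. The miR-29 family is known to bind the 3′-UTRs of many collagen mRNAs and to lower their levels.

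The sequences searched here for a match to the deleted miRNA are short. The mature miRNAs below are from RefSeq on GRCm38.p6, with capitals for the seed, bases 2 to 8. miR-29a-3p lies at chr6:31062673-31062694 on the minus strand. miR-29b-3p is encoded beside it and again on chromosome 1, where miR-29c-3p also lies. All 3 share the seed.
miR-29a-3p: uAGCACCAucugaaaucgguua
miR-29b-3p: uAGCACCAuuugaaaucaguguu
miR-29c-3p: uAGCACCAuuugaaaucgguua

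The reverse complement of that seed, TGGTGCT, was searched on the sense strand of the longest annotated 3′-UTR of each gene (GENCODE, GRCm38). It was found in 4 of the 9 genes and in 15.5% of the 14832 tested genes with an annotated 3′-UTR. Where an A follows the 7 bases, the match covers 8 bases, and 3 of the 9 genes and 3.38% of the tested genes held such a match. The matches are shown with 15 bases before and 1 base after, and capitals mark the 7 bases.
Col6a2, chr10:76598751-76598757, minus strand: gagcacaaatgggggTGGTGCTa
Col6a3, chr1:90767412-90767418, minus strand: cgtgacctgtcaataTGGTGCTa
Col9a1, chr1:24252011-24252017, plus strand: cagatttagagcaacTGGTGCTa
Col9a1, chr1:24252331-24252337, plus strand: tacattcaataaaatTGGTGCTt
Col16a1, chr4:130099268-130099274, plus strand: tccatggggttccccTGGTGCTg

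No match was present in the annotated 3′-UTRs of Col6a1, Col9a2, Col9a3, Col12a1 and Col14a1, which says only that these letters are not in those windows. The matches are descriptions of sequence, and binding was not measured in these libraries. The 3 collagen VI genes, with and without a match, differed between WT and KO by nearly the same fold, 1.57 to 1.63 in the ratio of means. Col9a1 and Col16a1, which also hold a match, had log2 fold changes of -0.16 (SE 0.45) and 0.43 (SE 0.38) in all libraries. Whether a match bears on the difference was not tested.

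Before the genotypes are compared, the libraries need a word. All 9 genes passed the filter of a mean FPKM of at least 0.5, as did 14990 genes in all. Library WT1 stood apart from WT2, WT3 and WT4. It had the lowest value of the 8 libraries in 52.1% of the tested genes and in 5 of the 9 collagen genes. Its median log2 level over the tested genes was 2.635, compared with 2.91 to 3.11 in the other libraries. Its size factor by median ratios, a measure of the typical level in a library, was 0.776, compared with 0.94 to 1.095. The mean correlation of WT1 with the other WT libraries was 0.788 across genes, compared with 0.890 with the KO libraries. WT3 correlated at 0.854 with the other WT libraries and at 0.850 with the KO libraries, the lowest value with KO among the WT libraries. A single gene, Gm8797, took 7.09% of the summed FPKM of WT1. Results are therefore given with and without WT1. Of the 7 hair cell markers listed, 5 were above 1 FPKM in all libraries. All 7 together summed to 25.9 to 45.7 FPKM, so cochlear RNA was present in each library.

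The 3 genes of collagen VI were higher in KO, and no other gene of the 9 passed the test in all 8 libraries. Genes were called at an unadjusted p under 0.05 in limma, the threshold the study used, here on log2(FPKM + 0.1). By this rule 3 of the 9 were higher and 0 were lower, beside 4.61% of all tested genes that were higher, 0.507% that were lower and 5.12% in either direction. On the log2 scale the 9 genes had a median difference of 0.42 and all tested genes one of 0.10. After Benjamini-Hochberg adjustment in limma 0 of the 14990 genes passed, compared with 767 at an unadjusted p under 0.05, so every call named here is an unadjusted one. For each of the 9 genes an exact two-sided permutation test of the 8 log2 values is also given, whose smallest possible p is 0.0286. Scaling the libraries by median ratios brought the median of all genes from 0.10 to 0.0045 and turned 691 higher and 76 lower genes into 402 and 361.

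**Figure D1:**
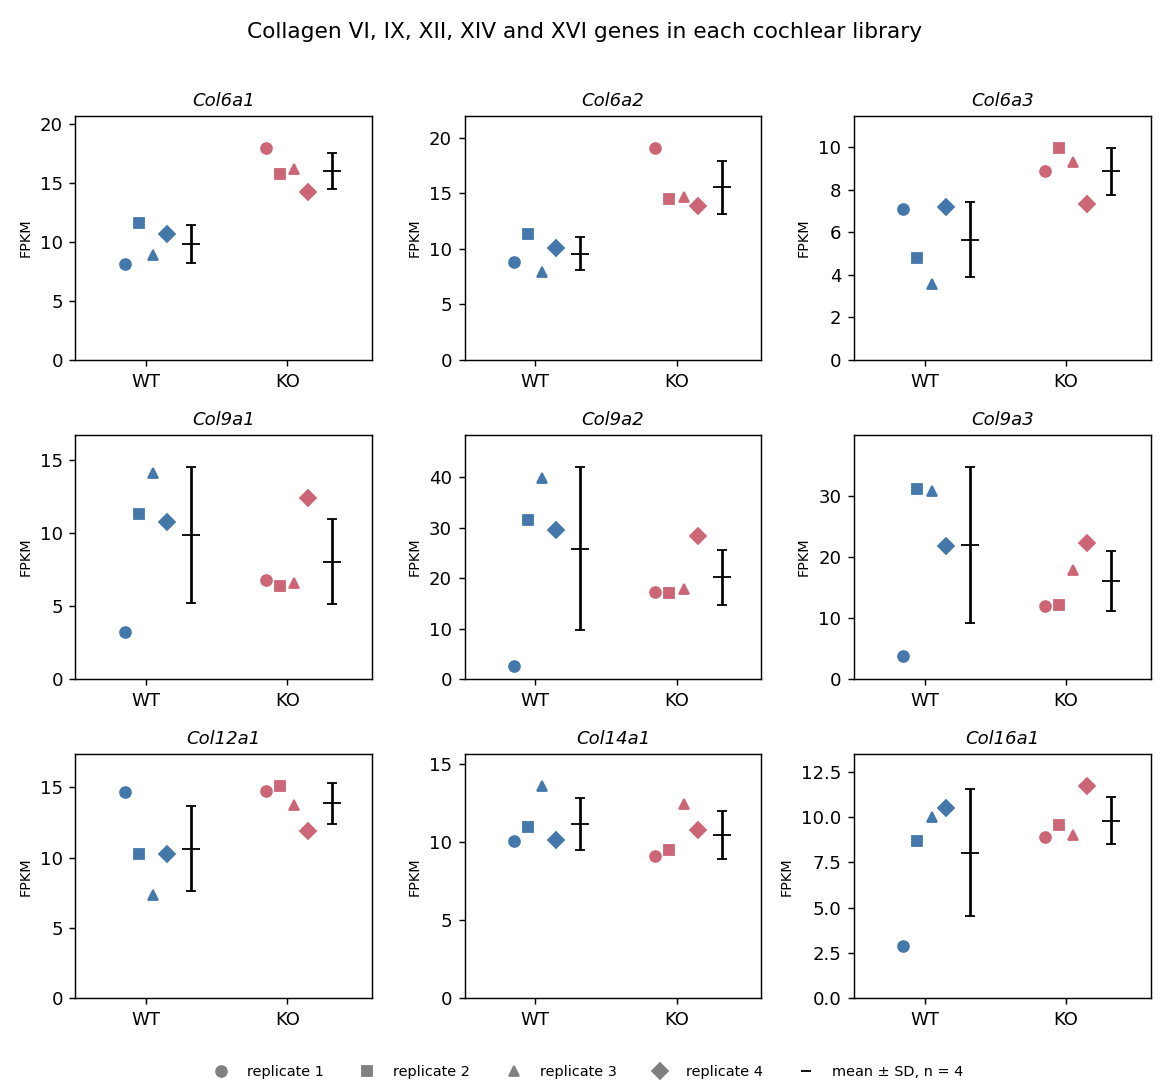
FPKM of each of the 9 genes (vertical axes, each from 0) in the 4 WT libraries (blue) and the 4 KO libraries (red), with symbols for the replicate number and black bars for the mean ± SD. The 4 KO points lie above the 4 WT points for Col6a1, Col6a2 and Col6a3, and WT1 (circle) is far below the other WT libraries for the collagen IX genes and Col16a1.

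Col6a1 encodes the α1(VI) chain, from chr10:76708792-76726168 on the minus strand. Its level was 8.12, 11.6, 8.90 and 10.7 FPKM in WT1 to WT4, and 18.0, 15.8, 16.2 and 14.3 FPKM in KO1 to KO4. The highest WT library was below the lowest KO library. The mean rose from 9.84 ± 1.61 to 16.1 ± 1.52 FPKM (SD, n = 4), a log2 fold change of 0.71 with an SE of 0.15 (95% confidence interval 0.36 to 1.06, limma p = 0.00141, Benjamini-Hochberg adjusted p = 0.922, exact permutation p = 0.0286).

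Col6a2 encodes the α2(VI) chain and lies on the same strand of chromosome 10 (chr10:76595762-76623630), 85.2 kb from Col6a1. Its level was 8.78, 11.4, 7.95 and 10.1 FPKM in WT1 to WT4, and 19.1, 14.5, 14.7 and 13.9 FPKM in KO1 to KO4. Again the groups did not overlap, with KO1 the highest library. It rose by 0.70 on the log2 scale with an SE of 0.16 (limma p = 0.00245, Benjamini-Hochberg adjusted p = 0.922, exact permutation p = 0.0286).

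Col6a3 encodes the large α3(VI) chain, from chr1:90765923-90843971 on the minus strand. It measured 7.08, 4.81, 3.55 and 7.17 FPKM in WT1 to WT4, and 8.87, 9.94, 9.28 and 7.32 FPKM in KO1 to KO4. The groups did not overlap here either, but WT4 and KO4 all but touched. Its log2 fold change was 0.69 with an SE of 0.24 (limma p = 0.0211, Benjamini-Hochberg adjusted p = 0.947, exact permutation p = 0.0286). This call was lost with median-ratio scaling, where the value was 0.59 with an SE of 0.29 and the groups overlapped, and in 4 other alternatives, with the same direction in all 5. Groups that did not overlap, with KO above WT, were found in these 3 of the 9 genes and in 3.02% of all tested genes, and the opposite order in 0 of the 9 and in 0.487%.

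The ratio of Col6a2 to Col6a1 was nearly constant, whereas that of Col6a3 to Col6a1 varied among the WT libraries. Col6a2 stood at 0.97 ± 0.080 of Col6a1 in WT and 0.96 ± 0.070 in KO (SD, n = 4), within 0.893 to 1.08 in every library. Col6a3 stood at 0.588 ± 0.225 of Col6a1 in WT and 0.552 ± 0.0622 in KO, and it was 0.871, 0.414, 0.399 and 0.668 in WT1 to WT4. Summed over the chains, collagen VI measured 25.0 ± 3.61 FPKM in WT and 40.4 ± 4.27 FPKM in KO, a ratio of 1.61. Without WT1 the differences were of like size, with log2 fold changes of 0.62 for Col6a1, 0.66 for Col6a2 and 0.81 for Col6a3, and the groups did not overlap. The limma p was 0.00151, 0.00382 and 0.00798, and the exact permutation p = 0.0571 for each, the smallest that 3 against 4 libraries allow.

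**Figure D2:**
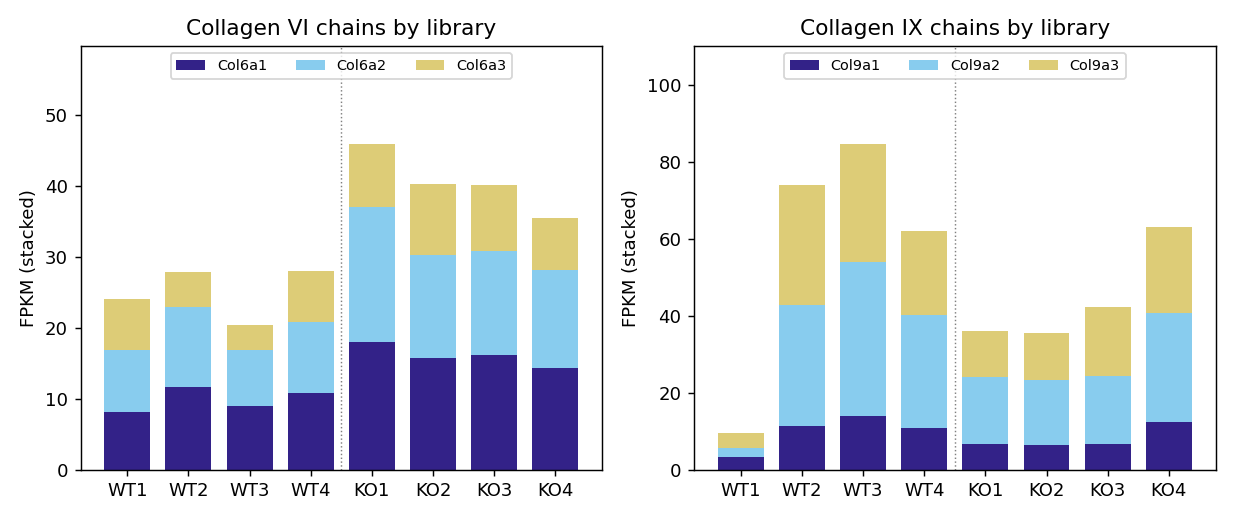
FPKM of the chains of collagen VI (left) and collagen IX (right), stacked for each of the 8 libraries, with WT left and KO right of the dotted line. The stack of collagen VI is 20.4 to 28.02 FPKM in WT and 35.5 to 45.9 FPKM in KO, while that of collagen IX is 9.59 FPKM in WT1 and 35.6 to 84.7 FPKM in the other 7 libraries.

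Collagen IX showed no call in the 8 libraries, and the result turned on WT1. Col9a1 encodes the α1(IX) chain (chr1:24177610-24252684, plus strand). Its level was 3.18, 11.3, 14.1 and 10.8 FPKM in WT1 to WT4, and 6.79, 6.35, 6.56 and 12.4 FPKM in KO1 to KO4. WT1 was the lowest of all libraries, and KO4 lay among WT2 to WT4. Over the 8 libraries the log2 fold change was -0.16 with an SE of 0.45 (limma p = 0.734, Benjamini-Hochberg adjusted p = 0.983, exact permutation p = 0.886).

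Col9a2, for the α2(IX) chain (chr4:121039385-121055322, plus strand), had the highest mean of the 9 genes, 23.0 FPKM. Its level was 2.56, 31.5, 39.8 and 29.5 FPKM in WT1 to WT4, and 17.3, 17.0, 17.8 and 28.4 FPKM in KO1 to KO4. The WT1 value was 7.63% of the mean of the other WT libraries, whereas KO4 was just below WT4. A log2 fold change of 0.15 resulted, with a 95% confidence interval from -1.63 to 1.94 (Benjamini-Hochberg adjusted p = 0.989, exact permutation p = 1).

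Col9a3 encodes the α3(IX) chain (chr2:180597790-180622189, plus strand), overlaps Tcfl5 on the other strand, and is uncertain to that extent because the strand used in counting was not stated. It measured 3.85, 31.2, 30.9 and 21.8 FPKM in WT1 to WT4, and 11.9, 12.2, 17.9 and 22.3 FPKM in KO1 to KO4. The order of the libraries was close to that of the other chains, with WT1 lowest and KO4 highest in its group. For this chain the log2 fold change was -0.12 with an SE of 0.63 (Benjamini-Hochberg adjusted p = 0.989, exact permutation p = 0.914).

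Without WT1, all 3 collagen IX genes were lower in KO. Their log2 fold changes were then -0.63 for Col9a1 (SE 0.24), -0.76 for Col9a2 (SE 0.20) and -0.83 for Col9a3 (SE 0.25). The limma p was 0.0323, 0.00567 and 0.00966, and the exact permutation p was 0.171, 0.0571 and 0.114, with 0.0571 the smallest that 3 against 4 libraries allow. Only Col9a2 then had groups that did not overlap, since KO4 lay within the range of WT2 to WT4 for the other chains. In that fit 7.40% of all tested genes were lower and 12.1% higher, and the limma p adjusted by Benjamini-Hochberg was 0.216 for Col9a1, 0.148 for Col9a2 and 0.154 for Col9a3. The direction of Col9a2 was therefore reversed by a single library.

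WT1 also differed in the make-up of collagen IX. Col9a2 stood at 2.74 to 2.83 times Col9a1 in WT2 to WT4 and at 2.30 to 2.72 times in KO, but at 0.806 times in WT1. Col9a3 stood at 2.05 ± 0.642 times Col9a1 in WT and 2.05 ± 0.453 times in KO (SD, n = 4). Set against collagen VI, the summed collagen IX chains were 2.66, 4.15 and 2.22 times as abundant in WT2 to WT4, and 0.785, 0.884, 1.05 and 1.78 times in KO1 to KO4. In these 7 libraries the ratio was lower in each KO library than in each WT library. In WT1 it was 0.400, below all of them.

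**Figure D3:**
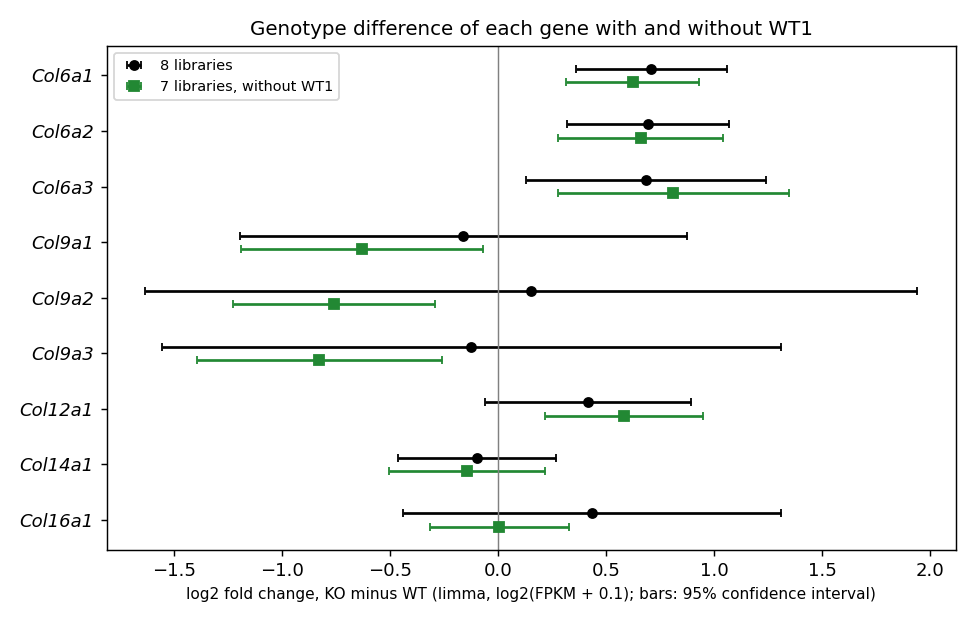
Log2 fold change of each gene (KO minus WT, horizontal axis) with its 95% confidence interval, from all 8 libraries (black) and from the 7 libraries without WT1 (green). The intervals of the collagen VI genes lie above 0 in both fits, and those of the collagen IX genes lie below 0 only without WT1.

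Col12a1 encodes the homotrimeric collagen XII of dense connective tissue, fascia and periosteum (chr9:79598991-79718831, minus strand, overlapped by an antisense transcript). Its level was 14.7, 10.3, 7.30 and 10.3 FPKM in WT1 to WT4, and 14.7, 15.1, 13.8 and 11.9 FPKM in KO1 to KO4. WT1 was as high as KO1, and the other WT libraries were below all KO libraries. With all libraries the log2 fold change was 0.42 with an SE of 0.21 (limma p = 0.0791, Benjamini-Hochberg adjusted p = 0.947, exact permutation p = 0.0857). Without WT1 it was 0.59 (SE 0.16, limma p = 0.00595, Benjamini-Hochberg adjusted p = 0.148, exact permutation p = 0.0571), past the limma threshold.

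Col14a1 encodes collagen XIV, a relative of collagen XII on the fibrils of skin and tendon (chr15:55307750-55520803, plus strand, overlapped by 3 non-coding genes on the other strand). It measured 10.05, 10.97, 13.6 and 10.1 FPKM in WT1 to WT4, and 9.09, 9.47, 12.4 and 10.8 FPKM in KO1 to KO4. The groups overlapped widely, and the range over the 8 libraries, 9.09 to 13.6 FPKM, was the narrowest of the 9 genes in proportion to the level. Its log2 fold change was -0.10 (95% confidence interval -0.46 to 0.27, exact permutation p = 0.514), and -0.14 without WT1 (exact permutation p = 0.400).

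Col16a1 encodes collagen XVI, a minor FACIT of cartilage and skin (chr4:130047840-130099283, plus strand). It measured 2.89, 8.67, 10.03 and 10.5 FPKM in WT1 to WT4, and 8.91, 9.59, 9.03 and 11.7 FPKM in KO1 to KO4. Apart from WT1 the groups covered the same range. A log2 fold change of 0.43 with an SE of 0.38 (exact permutation p = 0.514) became 0.01 without WT1 (95% confidence interval -0.31 to 0.33, exact permutation p = 1).

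By mean level over the 8 libraries the order was Col9a2, Col9a3, Col6a1, Col6a2, Col12a1, Col14a1, Col9a1, Col16a1 and Col6a3, from 23.0 down to 7.25 FPKM. No gene was below the preceding one in more than 6 of the 8 libraries, so neighbours in this order were not separated in every library. Counted without WT1, 7 of the 9 genes were called, 4 higher and 3 lower, beside 19.5% of all tested genes in either direction. The groups then did not overlap in 5 of the 9 genes, 4 with KO above WT and 1 with KO below, beside 11.1% and 7.17% of all tested genes.

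The collagen VI and IX genes belong to a larger set of matrix genes, for which lists were made by function. Of 7 other collagen VI and FACIT chains, 4 were tested and 0 were called. The nearest was Col22a1, a FACIT of tissue junctions, with a log2 fold change of 0.86 and an SE of 0.39 (limma, Benjamini-Hochberg adjusted p = 0.947). With the replicate number as a block Col22a1 was called higher (limma, Benjamini-Hochberg adjusted p = 0.767), as it was without WT2 (1.06, SE 0.41) and without WT4 (1.08, SE 0.39). Col6a4 and Col6a6 were under the filter, and Col21a1 was not analysed here.

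The fibril-forming collagens, onto which the FACITs attach, differed more. Of 11 genes 6 were higher in KO and 0 lower, with a median log2 fold change of 0.92. Those with the smallest p were Col3a1 (log2 fold change 1.09, SE 0.16; limma, Benjamini-Hochberg adjusted p = 0.558), Col5a1 (0.97, SE 0.19), Col1a2 (1.16, SE 0.28) and Col5a2 (0.92, SE 0.24). The groups did not overlap in any of the 6, with KO above WT, an order found in 3.02% of all tested genes. With the replicate block Col2a1 (0.77, SE 0.24) and Col5a3 (1.002, SE 0.38) were also called higher, which made 8 of 11. The difference between these genes and the 9 collagen VI and FACIT genes was not tested. Without WT1, 6 were higher and Col27a1, a cartilage collagen, was lower (-0.64, SE 0.20; limma, Benjamini-Hochberg adjusted p = 0.164).

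**Figure D4:**
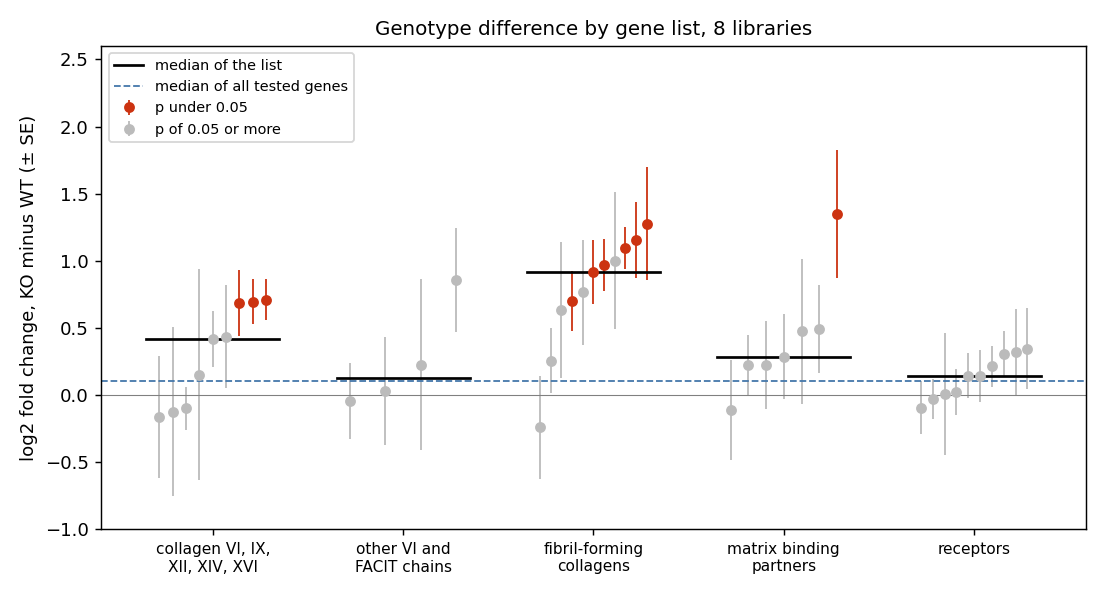
Log2 fold change (KO minus WT, ± SE, 8 libraries) of each tested gene in 5 gene lists, with the called genes in red, the list medians as black lines and the median of all tested genes as a dashed line. The called genes are the 3 collagen VI genes, 6 of 11 fibril-forming collagens and 1 matrix binding partner, and the medians run from 0.13 to 0.92, compared with 0.10 for all tested genes.

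Among 9 matrix proteins that bind these collagens, 7 were tested and 1 was higher in KO. This was Comp, the cartilage oligomeric matrix protein, with 3.13, 6.73, 1.76 and 9.502 FPKM in WT1 to WT4 and 13.6, 12.3, 11.7 and 8.19 FPKM in KO1 to KO4. Its groups overlapped through WT4 and KO4, and its log2 fold change was 1.35 with an SE of 0.48 (limma, Benjamini-Hochberg adjusted p = 0.947). The call was lost without KO1, where the value was 1.26 with an SE of 0.55. The median of the list was 0.29. Without WT1, Bgn (biglycan, a small proteoglycan that binds collagen VI) was also higher, at 0.77 (SE 0.25).

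The 10 receptors listed, among them the collagen-binding integrins, the discoidin domain receptors and the collagen VI receptors Antxr1 and Cspg4, had 0 calls and a median log2 fold change of 0.14. Their values ran from -0.09 to 0.35. Without KO1, Cspg4 was called higher (0.41, SE 0.17). Without WT1, Antxr2 (0.31, SE 0.13) and Itga2 (0.63, SE 0.20) were higher and Ddr1 (-0.50, SE 0.15) was lower.

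Markers of other cell types moved with the libraries. In bulk RNA, fewer cells of a type and less RNA per cell cannot be told apart. The 7 marrow and blood markers summed to 13566, 2235, 337 and 3153 FPKM in WT1 to WT4, and to 7232, 7684, 12421 and 4530 FPKM in KO1 to KO4. WT1 had the highest sum of all libraries and WT3 the lowest. The 6 osteoblast and osteocyte markers summed to 421, 168, 30.8 and 168 FPKM in WT1 to WT4, and to 352, 346, 271 and 185 FPKM in KO1 to KO4. WT1 was again the highest and WT3 the lowest, and 6 of 7 marrow and blood markers and 6 of 6 osteoblast and osteocyte markers had the higher mean FPKM in KO. None of these 13 markers was at 0 in any library, and in limma 0 of either list were called in the 8 libraries, compared with 7 and 4, all higher, without WT1. Without WT1 the groups did not overlap in either sum, and the ratios of KO to WT were 4.17 for marrow and blood and 2.36 for osteoblasts and osteocytes.

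In WT1, where both marker sums were highest, summed collagen VI was within the WT range, at 23.98 FPKM. The sum was 20.4 to 28.02 FPKM in the other WT libraries and at least 35.5 FPKM in KO. Among the chains in WT1, Col6a1 was the lowest of the 8 libraries, at 8.12 FPKM. The ratio of Col6a3 to Col6a1, 0.871, was the highest of the 8. These FPKM were not scaled for the low size factor of WT1 (0.776). In the same library collagen IX was the lowest of all 8 and Col12a1 the highest of WT. The part of marrow and bone in these results was not tested. Fibroblast markers, 6 in all and none at 0, summed to 190 to 295 FPKM in WT and 233 to 298 FPKM in KO. The sums overlapped, and 5 of the 6 markers had the higher mean FPKM in KO.

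Chondrocyte markers, 7 in all, summed to 62.3, 82.1, 102 and 70.8 FPKM in WT1 to WT4, and to 76.9, 71.8, 66.3 and 76.8 FPKM in KO1 to KO4. WT1 had the lowest sum, at 73.2% of the mean of the other WT libraries, and the summed collagen IX chains were at 13.0%. Cnmd and Sox9, with mean log2 levels of 5.41 and 4.59 in WT, weighed most in the marker sum. Acan followed at 2.94. Snorc and Matn3 were at 0 in some libraries, and Matn1 was under the filter. The supporting cell and tectorial membrane markers, 7 in all, summed to 197 FPKM in WT1, to 311 to 459 FPKM in WT2 to WT4 and to 249 to 354 FPKM in KO, with KO4 the highest KO library, as for collagen IX. Of these, Tectb, which encodes β-tectorin of the tectorial membrane, was called lower in the 8 libraries (log2 fold change -1.19, SE 0.36, limma, Benjamini-Hochberg adjusted p = 0.947). The level of Tectb was low, with a mean log2(FPKM + 0.1) of 0.56 in WT and -0.63 in KO. The 6 stria vascularis markers summed to 90.9, 158, 221 and 155 FPKM in WT1 to WT4, and to 96.9, 102, 110 and 138 FPKM in KO1 to KO4. All 6 had the lower mean in KO, WT1 had the lowest sum, and KO4 was again the highest KO library. Without WT1 the groups did not overlap, and the ratio of KO to WT was 0.628, compared with 0.601 for the summed collagen IX chains. Bsnd, which encodes the chloride channel subunit barttin, was called lower in the 8 libraries without overlap (-0.89, SE 0.31, limma, Benjamini-Hochberg adjusted p = 0.947). Its level was low, with a mean log2(FPKM + 0.1) of -0.08 in WT and -0.97 in KO. Without WT1, 5 of the 6 stria vascularis markers were called lower. The 7 neuron and Schwann cell markers summed to 515 FPKM in WT1, 1188 to 1736 FPKM in WT2 to WT4 and 1033 to 1228 FPKM in KO. None of these 20 markers was at 0. The 6 spiral ligament fibrocyte markers summed to 1391 to 2162 FPKM in WT and 1547 to 1997 FPKM in KO. Coch, with a mean log2 level of 10.5 in WT, weighed most in that sum, ahead of Slc4a10 at 6.07. Of the 6, only 2 had the higher mean FPKM in KO. Skeletal muscle markers were at 306.5 FPKM in KO3 and 34.8 FPKM in KO4 and at most 8.99 FPKM elsewhere. Among them, Mylpf was called higher in the 8 libraries, with groups that overlapped. Its log2 fold change was 2.48 with an SE of 1.01 (limma, Benjamini-Hochberg adjusted p = 0.947). The part of these cells in the collagen results was not tested.

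**Figure D5:**
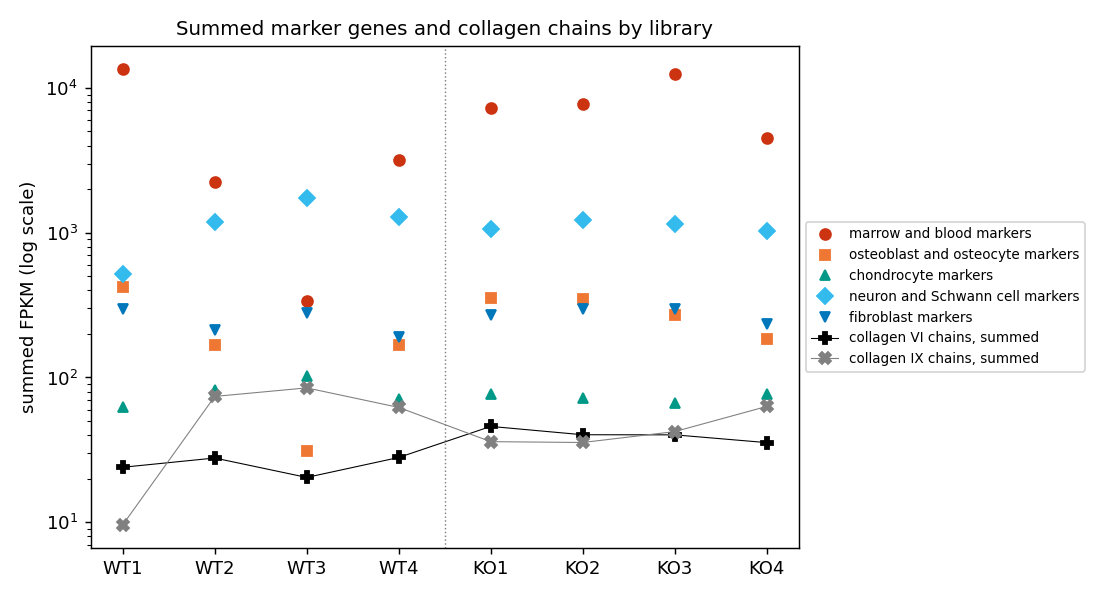
Summed FPKM (vertical log axis) of the markers of 5 cell types and of the collagen VI and collagen IX chains in each of the 8 libraries, with WT left and KO right of the dotted line. Marrow and blood markers run from 337 FPKM in WT3 to 13566 FPKM in WT1, while collagen IX is lowest in WT1 (9.59 FPKM) and highest in WT3 (84.7 FPKM).

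The genes whose log2 levels followed these collagens most closely were listed as a description, from 9849 genes with a mean of at least 5 FPKM over the 8 libraries, which share depth and scaling. For the summed collagen VI chains, whose groups do not overlap, the nearest were Arhgap39 (Pearson r = 0.98, Spearman rho = 1 over 8 libraries), Hist2h2ac (r = 0.96), Slbp (r = 0.96), Mmp2 (r = 0.96) and Mif4gd (r = 0.96). Mmp2, a gelatinase, was at 14.3 to 22.9 FPKM in WT and 29.5 to 32.1 FPKM in KO. Hist2h2ac is a histone H2A gene and Slbp encodes the protein that binds histone mRNAs.

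For the summed collagen IX chains the nearest were Nagk, Celsr2, Syt7, Axin2 and Krt222, all at r = 0.99 over 8 libraries and at 0.962 to 0.996 without WT1. Celsr2, an adhesion cadherin, was at 5.44 FPKM in WT1, at 15.7 to 18.9 FPKM in WT2 to WT4 and at 10.2 to 15.2 FPKM in KO. For Col12a1 they were an unnamed locus, XLOC_083618, then Nxpe2, Lig1, Hmgb2 and Mcm3 (r = 0.990 to 0.995, and 0.990 to 0.996 without WT1). Lig1, a DNA ligase, and Mcm3, a subunit of the replicative helicase, are DNA replication genes.

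The genes nearest Col14a1 were Mdh2, Slco1c1, Gng3, Pdk3 and Gstt1 (r = 0.91 to 0.96). For Col16a1 they were Rbm12b2, Fubp3, Nf2, Col11a2 and Cracr2b (r = 0.988 to 0.996), but without WT1 their r was 0.72 to 0.93, so that much of this likeness rested on that library. Col11a2, a fibril-forming collagen of cartilage, was at 21.6 FPKM in WT1 and at 91.2 to 152 FPKM in the other libraries.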

How the data were processed

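RNA-seq of 8 mouse cochlear libraries was used. The authors removed ribosomal RNA, made strand-specific libraries, aligned reads with Hisat2 and deposited gene FPKM, and the tool that gave the FPKM is not given in the sources used here. The submitters' notes name mm9, but the coordinates of 19771 of the 21895 genes, the 9 collagen genes included, equalled those of GENCODE M21 on GRCm38, which was used. FPKM hold no counts, so depth is unknown. The DESeq2 test of the authors needs counts and was replaced by limma 3.58.1 (R 4.3.3) on log2(FPKM + 0.1), with a variance trend, genotype as the only factor and a minimum mean FPKM of 0.5. All p are two-sided.

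The 9 genes and the lists were chosen with earlier results of these data known. Named genes are the 9, the called genes of each list (at most the 4 with the smallest p), genes called only under an alternative, the called markers and the nearest non-called chain (chosen after their values were seen), and the 5 genes most correlated with each collagen. Alternatives were the 6 libraries with replicate numbers 1 to 3, a pseudocount of 1, no filter or a minimum of 1 FPKM, median-ratio scaling, quantile normalization, no trend, a block for the replicate number, and each library left out in turn, and without WT1 also median-ratio scaling (chosen after seeing the data). The fit was tested on simulated data.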

Additional observations from a re-analysis of the deposited data

Results flagged for a closer look

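In groups of 4 libraries, a value was noted where its gap to the nearest library, divided by the range of the group on the log2(FPKM + 0.1) scale, passed Dixon's 95% critical value. Chance gives about 1 in 20 such groups. Of the 18 groups (9 genes, 2 genotypes) 4 were noted. Col9a2 in WT1, at 2.56 FPKM, was far below WT2 to WT4. Col16a1 in WT1, at 2.89 FPKM, was likewise far below the other WT libraries. Col9a1 in KO4, at 12.4 FPKM, and Col9a2 in KO4, at 28.4 FPKM, were far above the other KO libraries. On the FPKM scale 3 of the 18 groups were noted.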

How the results depend on the processing

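Of the 153 log2 fold changes of the 9 genes under alternatives, 135 kept their direction and their side of the threshold, 5 lost the call (all for Col6a3, with median-ratio scaling, with quantile normalization and without WT2, KO2 or KO3), 6 gained one and 7 reversed. The reversed values were -0.76 for Col9a2 without WT1 (-0.75 with median-ratio scaling as well, a setting chosen after seeing the data) and -0.02 without KO4, 0.075 for Col9a1 without WT3, and 0.17, 0.16 and 0.0025 for Col9a3 without WT2, WT3 or KO1. A reversed value was not counted as a gained call, although Col9a2 without WT1 also passed the threshold. Leaving out each library gave log2 fold changes of -0.63 to 0.075 for Col9a1, -0.76 to 0.54 for Col9a2 and -0.83 to 0.17 for Col9a3, and 347 to 2922 called genes, 2 to 7 calls among the 9 genes, 3 to 5 of the 9 without overlap, 0 to 1 call among other collagen VI and FACIT chains, 0 to 2 among matrix binding partners and 0 to 3 among receptors. The highest counts of called genes, of the 9 and of receptors came without WT1, and without KO2 or KO3 only 377 and 347 genes were called. Without WT1 and with median-ratio scaling 3253 genes and 7 of the 9 were called. Quantile normalization gave 378 higher and 510 lower genes. In the fit with a replicate block 838 genes and the same 3 collagen VI genes were called, and the calls went from 0 to 1 among other collagen VI and FACIT chains (Col22a1) and from 6 to 8 among fibril-forming collagens (Col2a1 and Col5a3 added). Deviations from the group means, compared between libraries of the same number, correlated at 0.419, -0.24, -0.17 and 0.21. Libraries of different numbers were not compared in this way, so these values do not settle whether the numbers pair the libraries. FPKM without counts give no counting error, and 4 libraries per group limit the precision.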
